A study of Homo sapiens with 4 samples.

Results

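In SCC1, a human head and neck squamous cell carcinoma line, 880 genes passed the authors' comparison after depletion of FOSL1 while not being listed for the second line of the study, FaDu. They were chosen as the gene symbols present in the authors' deposited SCC1 table and absent from the FaDu table, with the higher of the SCC1 levels at 5 CPM (read counts scaled to library size) or more. They make up 880 of the 1903 genes listed for SCC1 and of the 2770 genes listed for either line. A symbol absent from the FaDu table is not shown to be unchanged in FaDu: those tables hold genes past a threshold only, and up to 94 FaDu genes past it were not analysed here.

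The study sequenced RNA from SCC1 and FaDu cells that had received a siRNA against FOSL1 or a control siRNA for 48 h, grown in DMEM with 10% FBS. Both SCC1 groups, control siRNA and FOSL1 siRNA, are the same line without further alleles or agents in the labels, and each is 1 library of total RNA. A difference between them therefore has no replicate check, no test between the conditions was made, and every fold below is a ratio of CPM between 2 libraries. Intervals in parentheses are exact binomial 95% intervals of that ratio. They cover the counting error of reads only, and amplified reads that carry no molecular identifier may repeat a molecule. Fewer cells of a type and less RNA per cell cannot be told apart in such bulk libraries.

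FOSL1 encodes FRA1, a basic leucine zipper protein of the Fos family. FRA1 cannot pair with itself. It binds DNA as a dimer with a Jun protein, the AP-1 transcription factor, at a palindromic motif found in many enhancers and promoters. AP-1 activity follows growth factor and MAPK signalling, and FRA1 is known in squamous carcinoma for its link to motility, invasion and tumour-initiating cells.

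The effective library sizes were 13242163 reads for the control and 11280745 reads for FOSL1 siRNA, so that 1 read was worth 0.0755 and 0.0886 CPM. FOSL1 itself had 133 CPM in the control library and 3.99 CPM after its siRNA, 33.2-fold lower (24.7 to 45.7). The target was thus low in the library whose label says so. Of 7 keratinocyte markers, 1 (CDH1) was listed in SCC1, and it is among the 880 genes. Of 7 leukocyte markers 1 was listed (CD68), which is not among the 880, and of 7 fibroblast and 5 endothelial markers 0 were. A gene is listed because it differed between the libraries, so a marker being listed or not says nothing on cell identity. The levels of unlisted genes were not analysed here, so the squamous origin of the cells was not checked.

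Of the 880 genes, 388 were higher and 492 were lower after FOSL1 siRNA. The authors tested 13796 genes in SCC1 and listed 13.8% of them, 5.6% as higher and 8.19% as lower. The 880 genes are 6.38% of those tested, with 2.81% higher and 3.57% lower. These 3 shares are given as the background for the preset gene lists below. Those lists were themselves chosen with earlier results of these data known. A list share set beside the background is therefore a description and no independent support. The genes tested include some under 5 CPM, which could not be members. The shares may therefore be too low a background for lists of well expressed genes. The authors' filter chose the genes, so their folds are a description: the median was 2.24 (quartiles 2.04 and 2.72), and 66 genes differed by 4-fold or more, 31 of them higher and 35 lower. The authors' p-values and FDR, here and below, compare 2 libraries and measure no spread between replicates. Their p-values were matched within 1% by a count test at an assumed dispersion of 0.05. An FDR under 0.05 stood in the authors' deposited table for 169 of the 880, 75 higher and 94 lower.

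**Figure D1:**
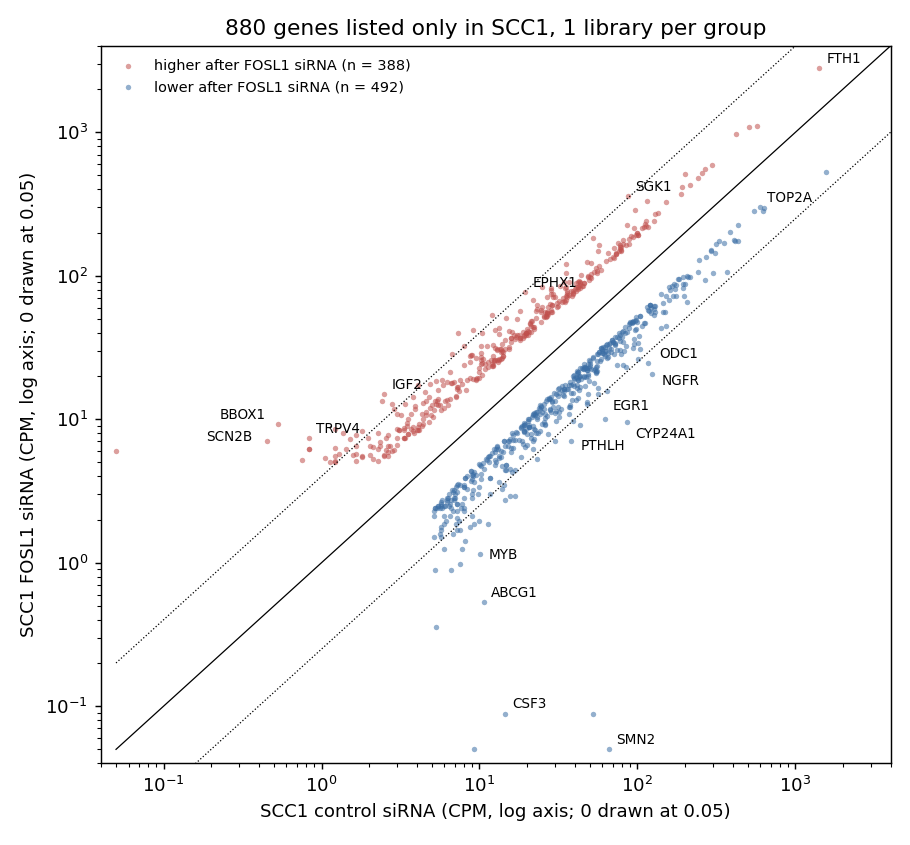
Levels of the 880 genes in the SCC1 control library (horizontal, CPM, log axis) and the SCC1 FOSL1 siRNA library (vertical, CPM, log axis), 1 point per gene, 388 higher in red and 492 lower in blue. The solid line marks equal levels and the dotted lines 4-fold; 66 genes are at or beyond the dotted lines, and the empty band around the solid line is the authors' filter.

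Secreted signals and transcription factors stood among the largest differences in the lower direction. CSF3, whose product G-CSF drives neutrophil formation, had 14.6 CPM (193 reads) in the control library and, with FOSL1 siRNA, 0.0886 CPM (1 read), for a ratio of 164 (29.2 to 6527). PTHLH, encoding the parathyroid hormone-related protein that squamous tumours can secrete, had 38.1 and 7.0 CPM, 5.43-fold lower (4.28 to 6.98). FGF5, a fibroblast growth factor, had 43.6 and 9.13 CPM, 4.77-fold lower (3.86 to 5.94). All 3 ligand genes were thus high in the control library and low after FOSL1 siRNA. EGR1, an immediate early transcription factor induced by MAPK signalling, had 62.8 and 10.1 CPM, 6.21-fold lower (5.10 to 7.62). MYB, a transcription factor of proliferating progenitors, had 10.0 and 1.15 CPM, 8.72-fold lower (4.93 to 16.8). NGFR, the p75 neurotrophin receptor found on basal keratinocytes, had 124 and 20.6 CPM, 6.03-fold lower (5.25 to 6.94). Each of these regulators and this receptor was likewise higher in the control library.

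Metabolic enzymes and transporters made up another share of the lower genes at the extreme. CYP24A1, the hydroxylase that inactivates vitamin D, had 85.3 CPM in the control library and 9.57 CPM after FOSL1 siRNA, 8.91-fold lower (7.30 to 11). VDR, the vitamin D receptor, whose best known target is CYP24A1, had 32.7 and 11.9 CPM, 2.75-fold lower (2.26 to 3.37). Receptor and target gene were therefore both lower. They come from a list of 24 vitamin D and retinoic acid genes chosen after the values were seen, of which 2 (8.33%) were lower and 1 (4.17%), CYP26A1, was higher. ODC1, the rate-limiting enzyme of polyamine synthesis, had 117 and 24.6 CPM, 4.73-fold lower (4.16 to 5.40). ABCG1, a cholesterol exporter, had 10.6 and 0.532 CPM, 20.02-fold lower (8.97 to 55.5), from 141 and 6 reads. AOX1, an aldehyde oxidase, was 14.9-fold lower (5.57 to 56.2), but on 70 and 4 reads. The last 2 ratios rest on few reads after FOSL1 siRNA, and their intervals are wide. The other large differences in this direction included SYBU, TRDMT1, ADGRB2, ANKRD13B, SEMA3D and MARVELD1, between 4.11-fold and 7.74-fold lower.

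Among the genes that were higher, channels, an enzyme and secreted factors stood out. BBOX1, the last enzyme of carnitine synthesis, had 0.529 CPM in the control library (7 reads) and 9.22 CPM after FOSL1 siRNA (104 reads), 17.4-fold higher (8.17 to 44.5). SCN2B, a sodium channel beta subunit, had 0.453 and 7.0 CPM, 15.5-fold higher (6.79 to 43.4), and is also known as an adhesion molecule. The calcium-permeable channel gene TRPV4 had 0.831 and 7.36 CPM, 8.86-fold higher (4.70 to 18.4). In each case the control level rested on at most 11 reads. IGF2, a fetal growth factor of the insulin family, had 2.49 and 14.9 CPM, 5.98-fold higher (4.10 to 8.96). SPP1, the gene of osteopontin, had 1.21 and 8.60 CPM, 7.12-fold higher (4.17 to 12.9). Both genes were low in the control library and rested on more than 80 reads after FOSL1 siRNA.

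Better covered genes in the same direction included SGK1, a kinase induced by glucocorticoids and serum, with 86.5 CPM in the control and 358 CPM after FOSL1 siRNA, 4.14-fold higher (3.87 to 4.42). SP6, a transcription factor of ectodermal appendages and tooth epithelium, had 12.01 and 53.01 CPM, 4.41-fold higher (3.70 to 5.29). EPHX1, the microsomal epoxide hydrolase, had 19.5 and 77.1 CPM, 3.96-fold higher (3.44 to 4.57). ABCC2, an exporter of glutathione conjugates, had 7.93 and 32.4 CPM, 4.08-fold higher (3.28 to 5.12). These intervals lie well away from 1. ZSCAN31, ERVH48-1, RAB7B, SYT7, PIK3IP1 and CLCA2 were between 4.22-fold and 5.93-fold higher.

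Several extreme values belong to genes whose reads are hard to assign. With a floor of 3 reads in a library without reads, SMN2 (877 reads in the control and 0 with FOSL1 siRNA) was at least 249-fold lower, and EIF3CL had 123 and 0 reads, at least 34.9-fold lower. Both have near-identical copies, as do GTF2IP4 (688 and 1 reads) and RGPD8 (3.83-fold higher). C4B and C4B_2 were listed with the same reads, 11 and 70, and so describe 1 set of reads. JMJD7-PLA2G4B, a readthrough model, had 0 and 68 reads, at least 26.6-fold higher, whereas PLA2G4B, which it overlaps, was 2.67-fold lower (1.88 to 3.86). GCOM1, 5.71-fold lower, is a readthrough model too. In all, 52 of the 880 genes have such an uncertain model: 23 near-identical copies, 12 antisense genes (the strand setting of the counting is not given in the sources used here), 8 readthrough models, 5 overlapping genes and 4 with processed copies.

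DNA replication was the preset gene list with the most members, and all of them were lower. Cells license replication origins in G1 with the MCM helicase and fire them in S phase, and E2F factors drive many of the genes involved. Of 68 replication and G1/S genes, 15 (22.1%) were among the 880, 15 lower and 0 higher, against 3.57% lower of all genes tested. In SCC1 20 genes of the list were listed, and 5 of them were listed for FaDu too and so could not be members. Among those 5, CCNE1 was higher and TIPIN lower in SCC1, so the single direction holds for the members only. Promoter windows of 4 of them, from the RefSeq table of build GRCh38.p14, are shown because 10 of the 14 replication members with a window held an E2F motif; capitals mark the motif (TTTCCCGC or TTTGGCGC, on either strand), each window is read 5′ to 3′ on the gene's strand, and the deposited tables themselves were made on hg18.

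MCM6, chr2:135876506-135876553, minus strand: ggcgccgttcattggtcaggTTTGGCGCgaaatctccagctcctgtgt

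POLA1, chrX:24693761-24693808, plus strand: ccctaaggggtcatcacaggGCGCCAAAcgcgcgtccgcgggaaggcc

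E2F2, chr1:23531248-23531295, minus strand: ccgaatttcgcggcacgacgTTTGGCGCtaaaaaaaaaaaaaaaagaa

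TYMS, chr18:657594-657641, plus strand: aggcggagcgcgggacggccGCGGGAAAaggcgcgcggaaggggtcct

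MCM6, a subunit of the replicative helicase, had 175 CPM in the control library and 72.5 CPM after FOSL1 siRNA, 2.42-fold lower (2.23 to 2.62). POLA1, the catalytic subunit of DNA polymerase alpha, which starts each new strand with primase, had 40.9 and 13.7 CPM, 2.99-fold lower (2.50 to 3.60). E2F2, one of the activating E2F factors, had 20.01 and 6.65 CPM, 3.01-fold lower (2.32 to 3.94). All 3 were high in the control library. In the authors' deposited table POLA1 and E2F2 had an FDR under 0.05 (0.0335 and 0.0416) and the other 13 genes did not. Nucleotide supply was represented by RRM2, a subunit of ribonucleotide reductase, with 242 and 107 CPM, 2.26-fold lower (2.12 to 2.42), and by TYMS, thymidylate synthase, with 122 and 59.6 CPM, 2.05-fold lower (1.88 to 2.25). WDHD1, a replisome scaffold, was 2.39-fold lower (2.16 to 2.65). The kinase gene CDC7 and the loading factor gene CDC6, both needed for origin licensing or firing, were 2.10-fold (1.81 to 2.44) and 1.89-fold (1.74 to 2.05) lower. MCM7, GINS2, POLE2, RFC4, UHRF1, TIMELESS and E2F8 were between 1.91-fold and 2.24-fold lower. All 15 genes had their higher level in the control library, and 13 of them lay within 2.5-fold.

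The motif was common among these genes before any comparison. It stood in 3.70% of the 15843 protein-coding genes with a promoter window, in 7.40% of 365 lower and 3.03% of 297 higher members, and in 71.4% of the 14 replication members. Among the 43 genes of the same list that are not members, 32.6% held it. A gene with several annotated starts was counted if any of its windows held the motif, and a match describes letters, not binding.

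DNA repair and mitosis genes lay in the same direction. Of 65 DNA repair genes, 10 (15.4%) were members, 10 lower and 0 higher. In SCC1 18 repair genes were listed, and 8 of them were listed for FaDu too, so repair genes were not confined to the SCC1-only part. FANCL, the ubiquitin ligase of the Fanconi anaemia pathway, had 18.7 CPM in the control and 7.09 CPM after FOSL1 siRNA, 2.63-fold lower (2.04 to 3.43). EXO1, an exonuclease of mismatch repair and end resection, had 54.7 and 20.9 CPM, 2.61-fold lower (2.25 to 3.04), and the homologous recombination genes XRCC2 and RAD54L were 2.52-fold (1.97 to 3.24) and 2.36-fold (2.02 to 2.76) lower. BRIP1, DDB2, FANCF, OGG1 and MRE11A were also in the group. Of 68 mitosis genes, 8 (11.8%) were members, 8 lower and 0 higher, and all 8 mitosis genes listed in SCC1 were listed there only. NEK2, a centrosome kinase, had 74.2 and 23.9 CPM, 3.10-fold lower (2.71 to 3.56), and CENPH, of the inner kinetochore, had 55.4 and 23.5 CPM, 2.36-fold lower (2.05 to 2.73). The mitotic kinesin gene KIF14, with 129 and 55.5 CPM, was 2.32-fold lower (2.12 to 2.55), and TOP2A, the topoisomerase that untangles chromosomes, had 596 and 299 CPM, 1.99-fold lower (1.91 to 2.07). An FDR under 0.05 stood in the authors' deposited table for 0 of the 10 repair genes and for 1 of the 8 mitosis genes, NEK2.

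**Figure D2:**
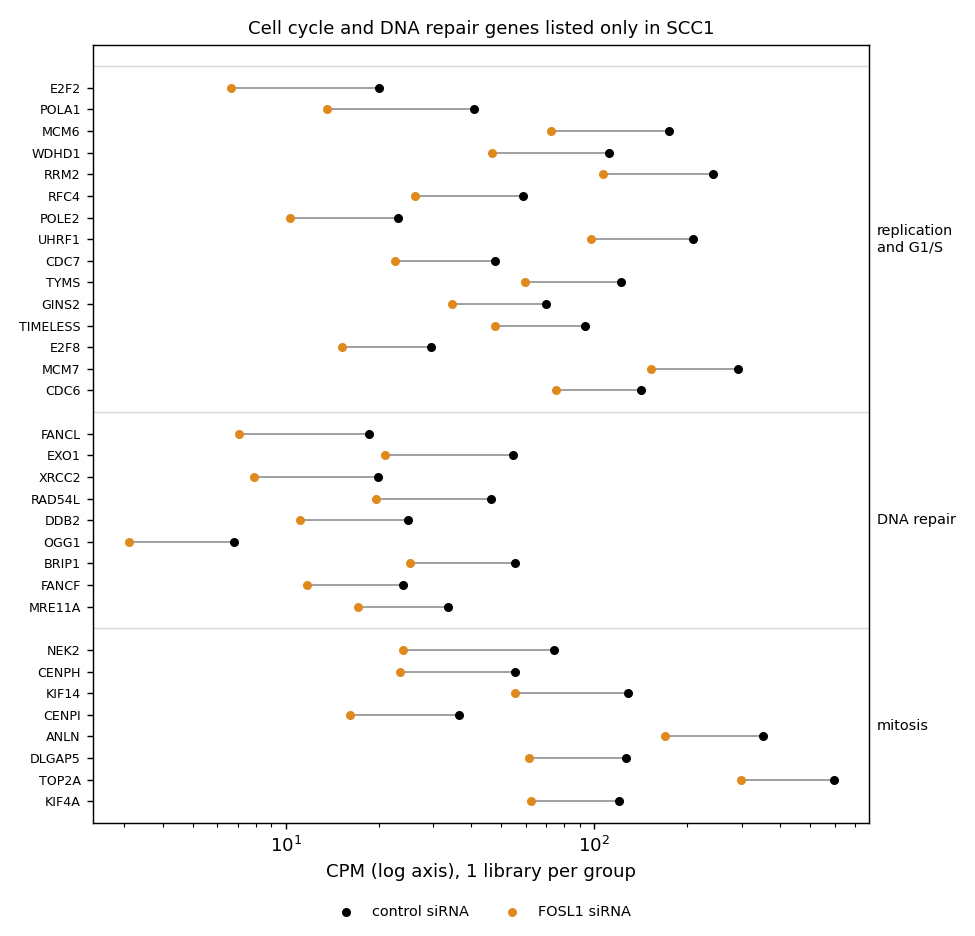
Levels of the 15 replication and G1/S genes, 9 of the 10 DNA repair genes and the 8 mitosis genes among the 880 (CPM, log axis) in the control siRNA library (black) and the FOSL1 siRNA library (orange) of SCC1, 1 library each. Every orange point lies to the left of its black point, with lines of similar length that span 1.89-fold to 3.10-fold.

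The scaling of the libraries bears on the size of these differences. When the log2 folds were shifted so that the median of all listed SCC1 genes, -1.05, became 0, none of the 15, 10 and 8 genes stayed 1.5-fold lower, while 9 of 15, 7 of 10 and 5 of 8 kept their lower sign. That median lies among the lower genes by construction, because the table leaves out small differences and holds more lower than higher genes, so the shift turns the sign of any gene less than 2.07-fold lower. How unlisted genes would place it was not tested.

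Interferon-stimulated and RNA sensing genes formed the next group. Their 2 lists had 18 different genes among the 880, of which 17 were lower. Cells detect foreign RNA with helicases such as RIG-I, which signal through IRF factors to interferon, and interferon then raises a set of antiviral genes through ISGF3 at interferon response elements. Of 62 interferon-stimulated genes, 10 (16.1%) were among the 880, 10 lower and 0 higher. Of 40 RNA sensing and antiviral factor genes, a list chosen after the values were seen, 12 were lower and 1 was higher. Windows of 4 of these genes are shown because they carry the interferon response motif (GAAA, any 2 bases and GAAA again, on either strand), in capitals, in build GRCh38.p14.

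DDX60, chr4:168318776-168318825, minus strand: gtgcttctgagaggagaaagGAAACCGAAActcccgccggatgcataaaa

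DDX60L, chr4:168480513-168480562, minus strand: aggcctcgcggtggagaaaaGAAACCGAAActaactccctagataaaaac

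EPSTI1, chr13:42992262-42992311, minus strand: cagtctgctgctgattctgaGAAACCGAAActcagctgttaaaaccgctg

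ISG15, chr1:1013370-1013419, plus strand: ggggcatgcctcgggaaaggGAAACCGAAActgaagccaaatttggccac

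These 4 genes share the letters GAAACCGAAA at the motif. DDX60, a helicase-like antiviral factor, had 49.3 CPM in the control and 22.6 CPM after FOSL1 siRNA, 2.18-fold lower (1.88 to 2.53), and its neighbour and relative DDX60L had 42.8 and 15.96 CPM, 2.68-fold lower (2.27 to 3.19). EPSTI1 had 53.01 and 22.1 CPM, 2.40-fold lower (2.08 to 2.79), and ISG15, a ubiquitin-like modifier, had 45.7 and 23.0 CPM, 1.98-fold lower (1.71 to 2.30). All 4 were high in the control library. IRF7, the transcription factor that amplifies the interferon response, had 56.1 and 15.1 CPM, 3.72-fold lower (3.15 to 4.42). CMPK2, a mitochondrial nucleotide kinase, had 8.99 and 2.13 CPM, 4.22-fold lower (2.71 to 6.85), and MX2, a dynamin-like antiviral GTPase, had 16.8 and 4.43 CPM, 3.78-fold lower (2.77 to 5.25). SAMD9, a restriction factor, had 79.1 and 28.3 CPM, 2.80-fold lower (2.46 to 3.18). These 4 had, in the authors' deposited table, an FDR of 0.00627, 0.0106, 0.0107 and 0.0471, and the other 6 interferon-stimulated members were above 0.05.

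The sensors lay in the same direction. DDX58, which encodes RIG-I, had 67.8 and 29.4 CPM, 2.30-fold lower (2.03 to 2.62), and DHX58, which encodes its relative LGP2, had 12.5 and 4.79 CPM, 2.60-fold lower (1.90 to 3.61). EIF2AK2, the kinase PKR that halts translation on double-stranded RNA, had 173 and 80.8 CPM, 2.14-fold lower (1.98 to 2.31). PNPT1, a mitochondrial RNA exonuclease, was 2.93-fold lower (2.62 to 3.29), and TRIM6, TRIM56, SLFN11 and AZI2 were between 1.93-fold and 2.54-fold lower. TBKBP1, an adaptor of the kinase TBK1, was the exception, with 5.44 and 15.9 CPM, 2.92-fold higher (2.21 to 3.89). After the shift of the median, 3 interferon-stimulated genes stayed 1.5-fold lower and 1, ISG15, changed sign, as did 3 of the 12 lower RNA sensing genes, of which 1 stayed 1.5-fold lower. None of 31 antigen presentation genes was a member, although interferon also acts on many of them; 4 were listed in SCC1.

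**Figure D3:**
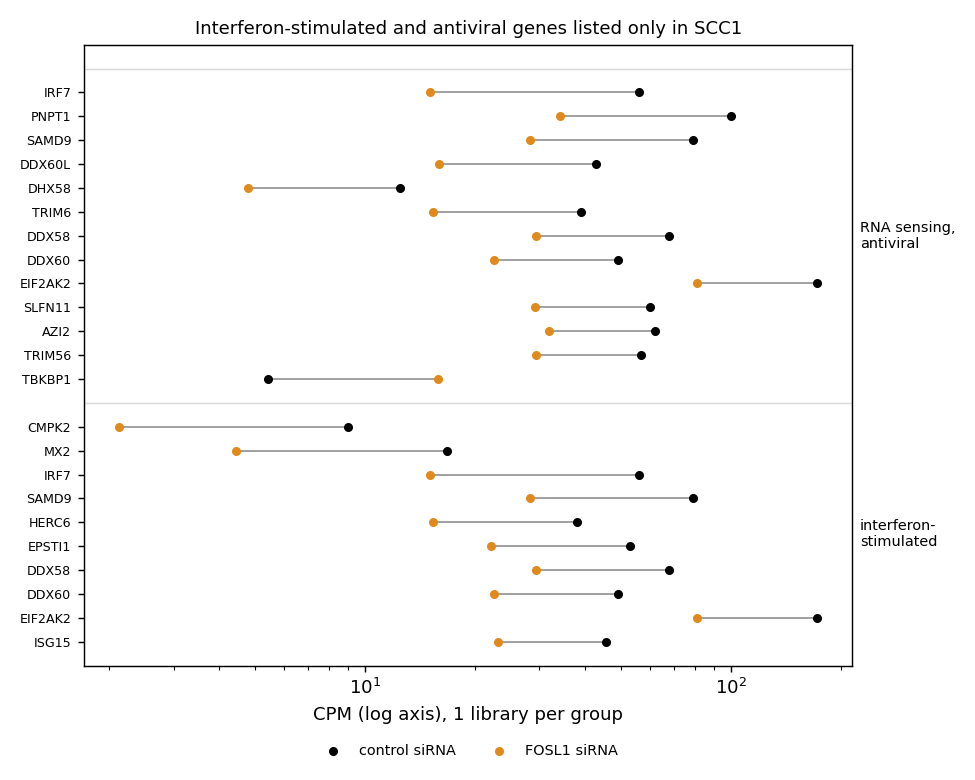
Levels of the 10 interferon-stimulated and 13 RNA sensing and antiviral genes among the 880 (CPM, log axis) in the control siRNA library (black) and the FOSL1 siRNA library (orange) of SCC1, 1 library each; IRF7, SAMD9, DDX58, DDX60 and EIF2AK2 stand in both groups. TBKBP1 is the gene whose orange point lies to the right.

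The interferon response motif was found in 62.5% of 8 interferon-stimulated members with a window and in 67.4% of 43 genes of the list that are not members, against 4.16% of all genes with a window. The letters therefore did not set the members apart from the rest of their own list.

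Genes of cell cycle exit among the 880 were mostly higher. FOXO factors, which growth factor signalling through AKT keeps out of the nucleus, are known to raise cell cycle inhibitors, pro-apoptotic BH3 genes and brakes on PI3K. Of 61 FOXO target and cell cycle exit genes, 16 were higher and 2 were lower. The list was chosen after the values were seen, so these counts cannot be set against the shares of all genes tested. CDKN2B, encoding the CDK4/6 inhibitor p15, had 13.2 CPM in the control and 42.9 CPM after FOSL1 siRNA, 3.25-fold higher (2.73 to 3.88). PIK3IP1, an inhibitor of PI3K, had 4.08 and 17.5 CPM, 4.28-fold higher (3.15 to 5.90), and FBXO32, the ubiquitin ligase atrogin-1, had 12.5 and 42.2 CPM, 3.37-fold higher (2.82 to 4.04). These 3 genes were low in the control library. FOXO4 itself was 2.35-fold higher (1.95 to 2.85). CCNG1, CCNG2, HBP1, PNRC1, TOB1, TOB2, KLHL24, YPEL2, BMF, TP53INP1 and SOD2, with SGK1 above, made up the rest, between 1.89-fold and 4.14-fold higher. The exceptions were CDKN2C, encoding the inhibitor p18, with 9.82 and 3.01 CPM, 3.26-fold lower (2.22 to 4.90), and MXD3, which unlike its family is expressed in S phase, 2.11-fold lower (1.59 to 2.82).

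Among 41 genes of the preset p53 target list, 6 (14.6%) were higher and 1 was lower. Whether these genes depend on p53, CDKN2B and CCNG2 among them, was not tested. TP53INP1, a stress-induced autophagy and death factor, had 4.83 and 17.6 CPM, 3.65-fold higher (2.74 to 4.92), and PMAIP1, encoding the BH3 protein NOXA, had 17.3 and 38.8 CPM, 2.25-fold higher (1.91 to 2.65). PERP, a desmosomal p53 target, had 298 and 589 CPM, 1.98-fold higher (1.90 to 2.06). The damage sensor gene DDB2 was the lower one, 2.23-fold (1.81 to 2.76). CCNG1, CCNG2, CDKN2B and TP53INP1 are shared with the FOXO list, so the groups are not separate evidence.

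Circadian clock genes among the 880 were higher with 1 exception. Of 26 clock genes, also listed after the values were seen, 5 were higher and 1 was lower, and all 6 clock genes listed in SCC1 were listed there only. The repressor genes PER2 and CRY2, which close the feedback loop on CLOCK and BMAL1, had 8.91 and 28.0 CPM, 3.14-fold higher (2.54 to 3.92), and 10.2 and 24.4 CPM, 2.39-fold higher (1.94 to 2.96). The output factor genes DBP and TEF, direct clock targets of the PAR bZIP family, were 2.90-fold (2.33 to 3.63) and 2.06-fold (1.73 to 2.46) higher, and NR1D1, the repressor REV-ERB alpha, was 2.03-fold higher (1.49 to 2.79). TIMELESS, whose main role in mammals is at the replication fork, was 1.97-fold lower (1.78 to 2.18), and its sign turned with the shift of the median.

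**Figure D4:**
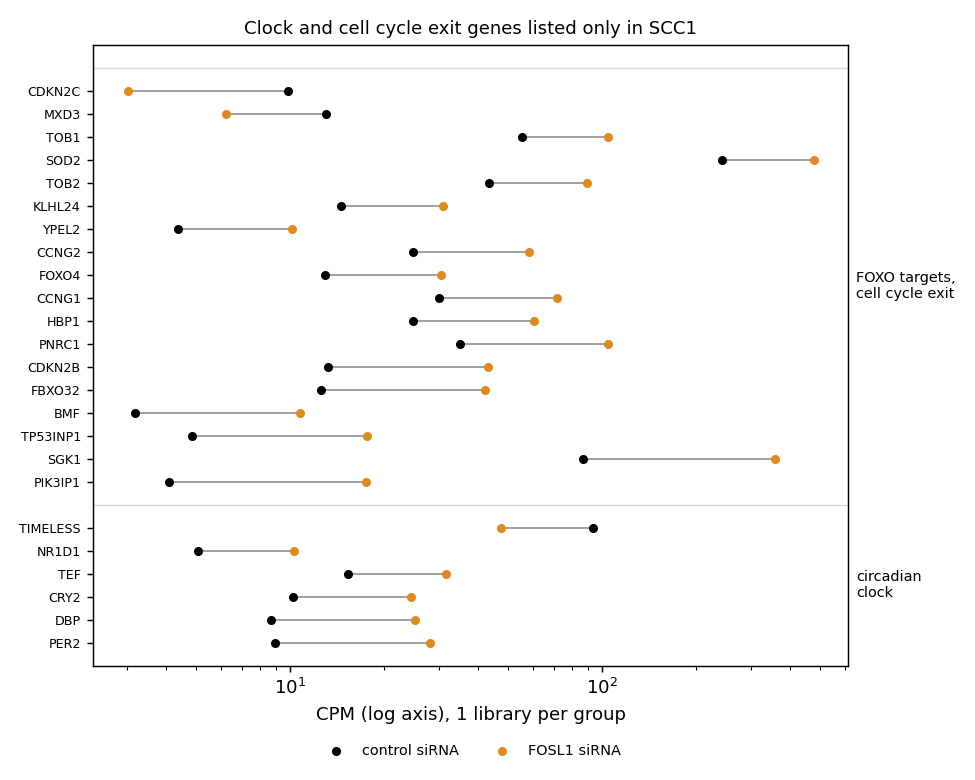
Levels of the 6 circadian clock and 18 FOXO target and cell cycle exit genes among the 880 (CPM, log axis) in the control siRNA library (black) and the FOSL1 siRNA library (orange) of SCC1, 1 library each. The orange point lies to the right for 21 of them and to the left for TIMELESS, CDKN2C and MXD3.

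NRF2 targets among the 880 were mostly higher. NRF2 is the factor that raises antioxidant and conjugating enzymes under electrophile stress. Of 56 NRF2 target and glutathione genes, 9 (16.1%) were higher and 2 were lower. An FDR under 0.05 stood in the authors' deposited table for 3 of the 11, EPHX1 and ABCC2, which were higher, and CBR3, which was lower. HMOX1, haem oxygenase, had 37.0 CPM in the control and 90.3 CPM after FOSL1 siRNA, 2.44-fold higher (2.19 to 2.72). The ferritin subunit genes FTH1 and FTL, which have processed copies in the genome, had 1413 and 2805 CPM, 1.99-fold higher (1.95 to 2.02), and 508 and 1095 CPM, 2.15-fold higher (2.09 to 2.22). PGD, of the pentose phosphate pathway, and GSR, glutathione reductase, were 2.17-fold (2.06 to 2.30) and 1.99-fold (1.83 to 2.17) higher, beside EPHX1 and ABCC2 above. In contrast SLC7A11, the cystine importer that feeds glutathione synthesis, had 193 and 82.4 CPM, 2.34-fold lower (2.17 to 2.53), and the carbonyl reductase gene CBR3 was 3.79-fold lower (2.37 to 6.33). The antioxidant response motif TGACNNNGC was present in 24.9% of higher members, 19.5% of lower members and 17.9% of all genes with a window.

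Hypoxia and glycolysis genes lay mostly in the same direction, with 5 of 52 (9.62%) higher and 1 lower. The authors' deposited table gave 2 of these 6 an FDR under 0.05, CA9 and the lower gene. CA9, a carbonic anhydrase on the cell surface and a classic HIF target, had 3.40 and 12.7 CPM, 3.73-fold higher (2.65 to 5.34). SLC2A1, the glucose transporter GLUT1, had 191 and 413 CPM, 2.16-fold higher (2.06 to 2.27). The histone demethylase genes KDM3A and KDM4B, both HIF targets, and the collagen prolyl hydroxylase gene P4HA1 were between 1.92-fold and 2.36-fold higher.

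Of 48 amino acid response and ER stress genes, 5 (10.4%) were among the 880, 5 lower and 0 higher. None of the 5 had an FDR under 0.05 in the authors' deposited table. ASNS, asparagine synthetase, had 81.7 and 30.0 CPM, 2.73-fold lower (2.41 to 3.09). CHAC1, which degrades glutathione, was 2.09-fold lower (1.65 to 2.68), and CEBPG, a partner of ATF4, ALDH1L2, a mitochondrial folate enzyme, and EIF2AK3, the kinase PERK, were 1.96-fold to 1.99-fold lower. The last 3 changed sign with the shift of the median. VARS was the 1 member among 37 aminoacyl-tRNA synthetase genes, 1.96-fold lower (1.85 to 2.08), also with its sign turned. Ribosome biogenesis had 1 higher and 1 lower of 65, and nuclear transport 2 lower of 60, shares under the background.

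Cytokine genes and their receptors were few but included several with an FDR under 0.05 in the authors' deposited table, 4 of 5. Of 60 genes, 4 (6.67%) were lower and 1 (1.67%) was higher. LIF, a cytokine of the IL-6 family, had 93.9 and 31.2 CPM, 3.01-fold lower (2.67 to 3.40). TNFSF15, the TNF family ligand TL1A, had 23.3 and 5.32 CPM, 4.37-fold lower (3.31 to 5.87). CXCL2, a neutrophil chemokine, was 2.09-fold lower (1.64 to 2.70). The receptor gene IL6R went the other way, with 14.8 and 51.1 CPM, 3.45-fold higher (2.93 to 4.08). Of 57 NF-kappaB and TNF receptor genes 2 (3.51%) were lower, near the 3.57% of all genes tested. BIRC3, an inhibitor of apoptosis, was 2.85-fold (2.33 to 3.51) and TNFAIP2 2.19-fold (2.10 to 2.28) lower.

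Matrix, protease and mesenchymal genes numbered 5 or fewer in each list. VIM, the mesenchymal intermediate filament vimentin, had 30.1 CPM in the control and 7.09 CPM after FOSL1 siRNA, 4.24-fold lower (3.33 to 5.46), while CDH1, E-cadherin, had 101 and 192 CPM, 1.90-fold higher (1.78 to 2.04). The mesenchymal filament gene was thus lower and the epithelial cadherin gene higher. The list of epithelial-mesenchymal transition gave 2 higher and 2 lower of 36, each 5.56%. Among them SNAI3, a Snail family gene, was 2.53-fold higher (1.76 to 3.71). Of 47 epithelial junction genes, 4 (8.51%) were higher and 0 lower: CDH1, PERP, GJA1, encoding connexin 43, 2.25-fold higher (2.10 to 2.41), and MARVELD3, 1.89-fold higher (1.70 to 2.10). Integrins and the basement membrane gave 3 lower of 59 (5.08%). ITGA1, the alpha chain of a collagen receptor, had 9.21 and 1.86 CPM, 4.95-fold lower (3.10 to 8.28). AGRN was 2.38-fold (2.26 to 2.50) and FERMT1, encoding kindlin 1, 2.11-fold (1.93 to 2.31) lower. Proteases and serpins had 3 higher (4.29%) and 2 lower (2.86%) of 70. MMP12, macrophage elastase, was 2.45-fold (2.17 to 2.77) and ADAM17, the main sheddase of EGFR ligands, 2.27-fold (2.10 to 2.45) higher. SERPINF1, the anti-angiogenic PEDF, was 2.69-fold higher (2.35 to 3.09).

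Other signalling lists gave 5 genes or fewer. Among 53 EGFR, MAPK and YAP/TAZ output genes 3 (5.66%) were lower, EGR1, AJUBA and MYC. AJUBA, a LIM protein of the Hippo pathway, was 2.87-fold lower (2.69 to 3.06). MYC had 160 and 67.9 CPM, 2.35-fold lower (2.16 to 2.56). In the TGF-beta list, with 1 higher (1.89%) and 2 lower (3.77%) of 53, INHBA, a subunit of activin, was 3.29-fold lower (2.40 to 4.58), and ID2, a BMP-induced inhibitor of bHLH factors, 4.26-fold higher (2.41 to 7.93). For WNT and Notch, with 3 higher (4.41%) and 2 lower (2.94%) of 68, JAG1, LGR4 and WNT3A were 2.06-fold, 1.98-fold and 2.22-fold higher, and HES4 and TCF7 3.86-fold and 2.28-fold lower. Of 62 axon guidance genes 4 (6.45%) were higher, EPHB2, EPHB4, EFNA4 and SEMA4B, between 1.96-fold and 2.23-fold, and 1 (1.61%) was lower, SEMA3D. The list of keratinocyte differentiation genes had 3 lower of 58 (5.17%) and 0 higher. They were KRT7, EMP1 (whose sign the shift turned) and NGFR, found on basal keratinocytes as given above. A direction of differentiation was not tested.

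Chromatin regulators included all 3 TET dioxygenases, which oxidise 5-methylcytosine. TET1 had 3.93 CPM in the control and 12.4 CPM after FOSL1 siRNA, 3.16-fold higher (2.28 to 4.43), TET2 had 19.9 and 42.5 CPM, 2.13-fold higher (1.83 to 2.48), and TET3 had 39.1 and 74.1 CPM, 1.89-fold higher (1.70 to 2.12). DNMT1, the maintenance DNA methyltransferase, lay the other way, with 327 and 174 CPM, 1.88-fold lower (1.78 to 1.99), as did its partner UHRF1, 2.13-fold lower (1.99 to 2.29). UHRF1 belongs to the replication list and not to this one, and the sign of DNMT1 turned with the shift of the median. Over the whole list 5 of 83 (6.02%) were higher and 2 lower. The authors' deposited table gave TET1 an FDR of 0.0392, TET2 0.220, TET3 0.341, DNMT1 0.341 and UHRF1 0.203. Both HIST2H2AA3 and HIST2H2AA4, the 2 histone members, carried the same reads and are near-identical copies.

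Among 57 cholesterol and lipid synthesis genes, 3 were higher and 3 lower, each 5.26%. HMGCS1, an early enzyme of cholesterol synthesis, had 56.3 and 149 CPM, 2.64-fold higher (2.42 to 2.88), and INSIG1, a sterol-sensing brake on that pathway and also an SREBP target, had 34.1 and 91.0 CPM, 2.66-fold higher (2.38 to 2.98). DGAT2, the last step of triglyceride synthesis, was 2.90-fold higher (1.93 to 4.46). The cholesterol exporter genes ABCA1 and ABCG1, both LXR targets, were lower, ABCA1 with 26.7 and 10.5 CPM at 2.53-fold (2.05 to 3.14), as was FADS3 at 2.65-fold (2.36 to 2.97). The peroxisome import gene PEX6 was 1.92-fold lower (1.69 to 2.18), with its sign turned by the shift. Xenobiotic and steroid enzymes had HSD17B11 2.67-fold higher (2.26 to 3.17) and CYP26A1, which degrades retinoic acid, 5.21-fold higher (3 to 9.60), against CYP24A1 lower. Of 74 lysosome and autophagy genes 3 (4.05%) were higher, CTSH, NEU1 and SGSH, between 1.94-fold and 2.59-fold. Another 2 (2.70%) were lower, LAMP3 and ULK2, at 3.43-fold and 2.09-fold.

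Of 80 cilium genes, a list chosen after the values were seen, 10 (12.5%) were lower and 1 was higher. KIF7, a kinesin at the cilium tip that regulates Hedgehog signalling, had 18.3 and 5.50 CPM, 3.33-fold lower (2.51 to 4.47). MKS1 and TMEM216 of the transition zone were 2.31-fold (1.85 to 2.89) and 2.29-fold (1.57 to 3.40) lower. BBS4, AHI1, CEP290, FUZ, KIF3A and TTC30B, the last with a near-identical copy, were lower too, and IFT81 was 1.96-fold higher (1.63 to 2.36). The shift of the median left 2 of the 10 lower genes past 1.5-fold and turned the sign of 1.

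**Figure D5:**
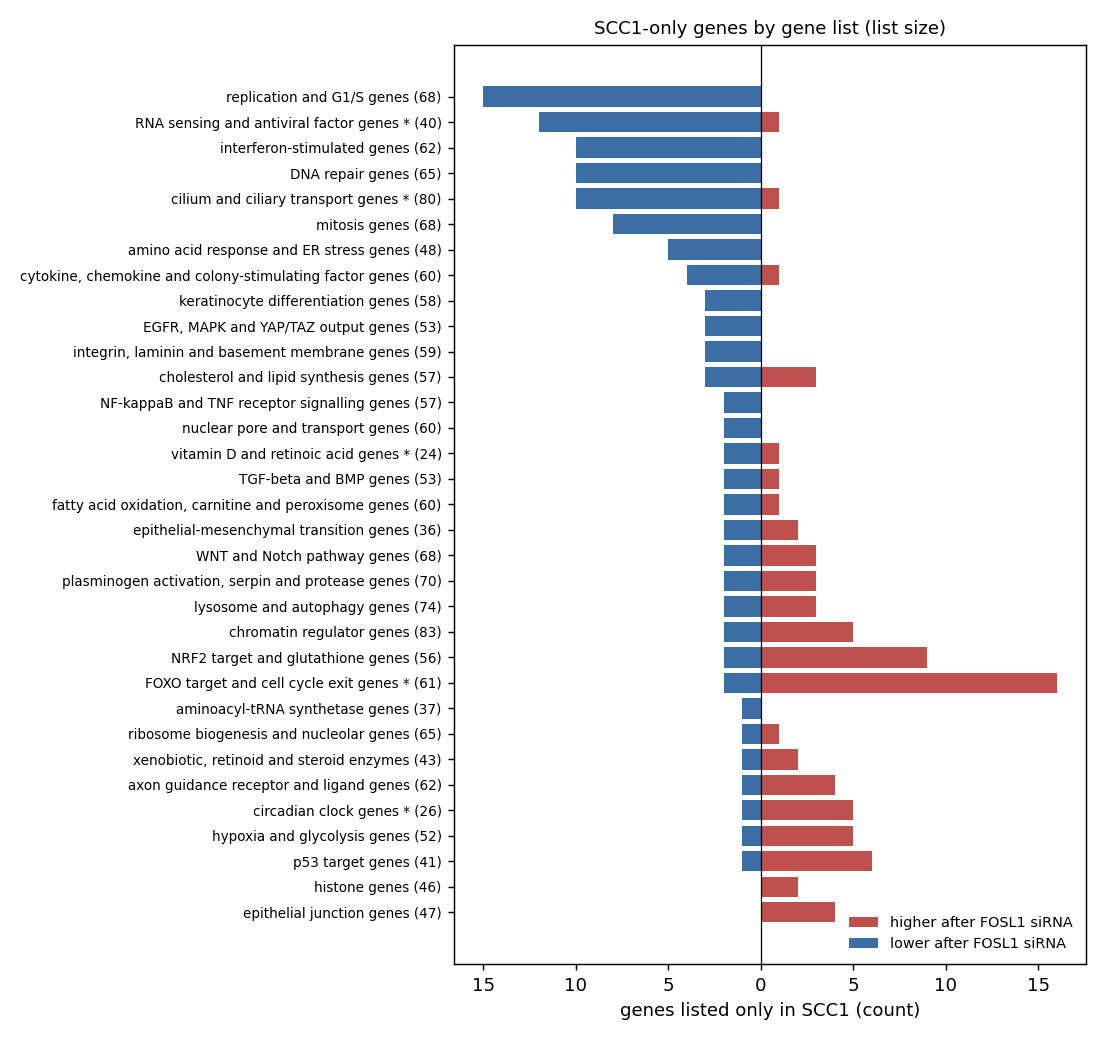
Number of genes among the 880 that were lower (blue, to the left) and higher (red, to the right) after FOSL1 siRNA in each gene list with at least 1 member; the number of genes in the list is in parentheses and an asterisk marks the 5 lists chosen after values were seen. Replication and G1/S genes reach 15 lower, FOXO target and cell cycle exit genes 16 higher.

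AP-1 and ATF genes gave 0 members of 28, and markers of fibroblasts, leukocytes and endothelium 0 of 19. In all, 139 of the 880 genes stand in at least 1 of the 31 preset lists.

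The AP-1 motif is the site that FRA1 binds with a Jun partner, and 4 windows are shown, with TGAGTCA or its reverse complement in capitals, for 2 lower genes (TNFSF15 and SERPINB13) and 2 higher genes (CA9 and GJA1), in build GRCh38.p14.

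TNFSF15, chr9:114792624-114792670, minus strand: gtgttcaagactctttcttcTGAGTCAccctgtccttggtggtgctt

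SERPINB13, chr18:63587236-63587282, plus strand: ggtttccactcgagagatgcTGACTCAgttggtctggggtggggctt

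CA9, chr9:35673831-35673877, plus strand: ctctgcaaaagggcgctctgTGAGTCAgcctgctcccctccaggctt

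GJA1, chr6:121435578-121435624, plus strand: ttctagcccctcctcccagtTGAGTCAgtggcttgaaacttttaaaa

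The motif stood within the windows of 20 of 365 lower members (5.48%) and 24 of 297 higher members (8.08%), against 834 of 15843 genes (5.26%). Of the genes listed in both lines, 7.96% of those lower and 4.64% of those higher held it. SERPINB13, a protease inhibitor of stratified epithelium, had 11.4 and 5.50 CPM, 2.07-fold lower (1.53 to 2.84). S100A2, a calcium-binding protein of basal keratinocytes with the motif in its window, had 546 and 283 CPM, 1.93-fold lower (1.85 to 2.01), with its sign turned by the shift of the median; it is named here after its values were seen. The windows cover 250 bases before to 50 after each start and hold no enhancers, where AP-1 is also known to bind.

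By type, 870 of the 880 symbols matched the RefSeq gene table: 826 protein-coding genes (371 higher and 455 lower), 30 long noncoding RNAs, 13 transcribed pseudogenes and 1 other pseudogene. The noncoding RNAs leaned lower, with 23 lower and 7 higher. However, 12 of the 880 are antisense genes, and without the strand setting their reads may include those of their partner.

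Compared with the 597 genes listed in both lines at 5 CPM or more, the 880 had smaller differences in SCC1. Their median fold was 2.24 against 2.66, 7.5% against 16.8% reached 4-fold, and 55.9% against 65.0% were lower. The authors' deposited table gave an FDR under 0.05 to 19.2% against 40.9%. These values describe the lists as drawn, and no test of the difference was made. The 880 genes are 46.2% of the SCC1 list. Another 345 symbols listed for SCC1 only lay under 5 CPM, with a median fold of 3.76. Just inside the limit were SARM1 and TMEM81, each at 5.05 CPM after FOSL1 siRNA, and RAD51L3-RFFL at 5.14 CPM in the control; just outside were FOXD2-AS1, KRT23 and LAT2, each at 4.98 CPM. For 121 of the 880 genes the higher library held fewer than 100 reads.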

How the data were processed

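RNA-seq of 4 libraries was analysed, 1 per line and siRNA. TopHat, Cufflinks and build hg18 were used per the submitters' processing notes; for their roles and versions, the read counter and the strand setting, the sources used here give nothing. The authors deposited 1 table per line, with CPM per library, a signed linear fold as a score, and a p-value and FDR, per the file headers. All listed genes had a p-value under 0.05 in the authors' deposited table. The SCC1 control column carries a trailing 2 of unknown meaning.

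Reads per gene were worked back from the CPM of the deposited tables: dividing by the CPM of 1 read gave whole numbers, within 0.01, for 100% of values. Folds are CPM ratios without pseudocount, with exact binomial 95% intervals, or a lower bound at 3 reads where a library had 0; genes of at least 1.5-fold counted as higher or lower, which all met. By their ratio of FDR and p-value, 13796 genes were tested by the authors, and up to 100 SCC1 genes past the threshold were not analysed here. The scripts were tested on simulated data. A likelihood ratio test of these reads (edgeR 4.0.16, R 4.3.3) was run at an assumed dispersion of 0.05. Its p-values lay within 1% of the authors' for 1903 of 1903 genes. At that dispersion it therefore repeats the filter that listed the 880 genes and gives no further support. It compares 2 libraries, not the conditions.

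The genes, the 31 preset and 5 added lists and the rule for naming genes were chosen with earlier results of these data known. The rule takes FOSL1, the 20 largest differences each way on log2(CPM + 1) without small RNAs, up to 5 genes per list, the genes nearest the 5 CPM limit, and genes with 0 reads in a library; other genes are named as list members or after their values were seen. A few of these genes are not reported here. Motifs were searched on both strands in RefSeq promoter windows (GRCh38.p14, 250 bases before to 50 after a start). Computing used matplotlib 3.10.9, SciPy 1.17.1, pandas 2.3.3, numpy 2.4.6 and Python 3.11.15.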

Additional observations from a re-analysis of the deposited data

How the results depend on the processing

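The split of 880 genes into 388 higher and 492 lower narrowed under stricter thresholds: a fold of 4 left 66 (31 higher, 35 lower), the authors' p-value under 0.01 left 333 (141 and 192), their FDR under 0.05 left 169 (75 and 94), and a count test at an assumed dispersion of 0.16, chosen after seeing the data, left 120 (54 and 66). Shifting log2 folds to the median of all listed genes left 466, with 78 lower, and turned the sign of 135 of the 492 lower genes; by construction it can remove only lower genes. Of the 139 genes in preset lists, 70 remained past the fold after that shift and 34 at the FDR limit. The log2 value after the shift was 0.0791 for ALDH1L2, 0.0819 for CEBPG, 0.0813 for VARS, 0.0572 for EIF2AK3, 0.0715 for EMP1, 0.0735 for TIMELESS, 0.0344 for IPO9, 0.112 for PEX6 and 0.0167 for SMARCA2, and of 152 named genes another 43 were no longer past 1.5-fold. Pseudocounts changed no named gene. Level minimums of 1 and 10 CPM gave 1225 and 712 genes, and leaving out uncertain models, chosen after seeing the data, gave 828. The 880 are 46.2% of the listed genes, 64.4% with a minimum of 1 CPM, 37.4% with 10 CPM and 32.4% among genes with an FDR under 0.05. No paired analysis was possible because each group holds 1 library and the labels give no replicate numbers.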

Other observations

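Outside the lists, other genes with familiar roles differed in SCC1; they are named after their values were seen and described only. TFRC, the transferrin receptor that imports iron, had 424 CPM in the control library and 974 CPM after FOSL1 siRNA, 2.30-fold higher (2.23 to 2.38). The mucin genes MUC16 and MUC20 were 2.41-fold (2.02 to 2.89) and 3.26-fold (2.54 to 4.22) higher, as was GPC1, a heparan sulphate proteoglycan, with 96.3 and 287 CPM, 2.98-fold (2.79 to 3.18). Nuclear receptor genes THRA and NR3C1, the thyroid hormone and glucocorticoid receptors, were 2.93-fold (2.46 to 3.52) and 2.04-fold (1.89 to 2.19) higher.

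Other single genes were lower. FLNA, the actin crosslinker filamin A, had 1562 and 530 CPM, 2.95-fold lower (2.86 to 3.03), and LGALS1, galectin 1, had 140 and 42.9 CPM, 3.27-fold lower (2.96 to 3.62). EDN1, the vasoconstrictor endothelin 1, had 7.70 and 1.24 CPM, 6.21-fold lower (3.53 to 11.8), and FGFBP1, which releases fibroblast growth factors from matrix, had 197 and 72.4 CPM, 2.72-fold lower (2.52 to 2.95). The cell cycle gene CCND2, cyclin D2, had 434 and 174 CPM, 2.50-fold lower (2.37 to 2.63), and DONSON, a replication factor outside the replication list, had 100 and 26.4 CPM, 3.80-fold lower (3.35 to 4.32). The overlapping genes SNRPN and SNURF, which share reads, were 3.99-fold (3.24 to 4.95) and 3.75-fold (3.13 to 4.53) lower.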
